A study of Mus musculus with 18 samples.

Results

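Apolipoproteins were examined as 10 genes, Apoa1, Apoa2, Apoa4, Apoa5, Apob, Apoc1, Apoc3, Apoe, Apom and Apoh, which were taken by symbol from the 54838 genes of the expression table. All 10 were found on 1 row each, and all 10 passed the filter on low values in every comparison. RNA-seq had been run on livers of 36-week-old C57BL/6 wild type (WT) mice and of miR-181ab1 global knockout (GKO) mice, which lack the miR-181a-1 and miR-181b-1 genes in all tissues. In each genotype 3 tumours and 3 non-tumour livers came from mice injected with 25 mg/kg diethylnitrosamine (DEN, a liver carcinogen) at postnatal day 12, and 3 normal livers came from untreated mice, so that the 18 samples formed 6 groups of 3. The labels did not tie tumours and non-tumour tissue to individual mice, and p-values measure the spread between these samples only.

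Apolipoproteins are the protein part of the particles that carry fat and cholesterol in blood, and the liver secretes most of them. Apob is the structural protein of VLDL and LDL, Apoa1 and Apoa2 are the main proteins of HDL, and the smaller exchangeable apolipoproteins move between particles and set how fast lipases hydrolyse them and receptors remove them. A microRNA such as miR-181 recognises its target mRNAs mainly through its seed, a short stretch near the 5′ end.

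The mature 5p products of the deleted genes are printed from RefSeq, because the seed shared by both is the means by which the deletion could touch an mRNA directly. Capitals mark the seed, bases 2 to 8. Both lie on the plus strand of chromosome 1 of GRCm38.p6 (mm10), miR-181a-5p at chr1:137966468-137966490 and miR-181b-5p at chr1:137966650-137966673.
mmu-miR-181a-5p: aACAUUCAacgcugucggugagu
mmu-miR-181b-5p: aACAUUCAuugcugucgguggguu

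A 7-base match to this seed was present in the 3′ UTR of 1 of the 10 genes, Apoh, in the longest GENCODE M21 3′ UTR of each gene. The Apoh match lay at chr11:108414317-108414323 on the plus strand, from base 22 of a 3′ UTR of 101 bases, and is shown with 10 bases on each side and the match in capitals.
Apoh: gaatcaaaatTGAATGTcgtatttgta

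Over all 20966 genes with such a 3′ UTR, 16.3% held a match, and their median 3′ UTR of 954 bases was longer than that of 9 of the 10 apolipoprotein genes, which ranged from 64 bases in Apoa1 to 1185 bases in Apoa5. The other 9 genes held no match in this window. A match is a description of the letters and not a site of binding.

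The results turn on 4 genes, Apom, Apoa1, Apoa2 and Apoa4, and the 300 bases around their RefSeq start sites (250 before and 50 after, GRCm38.p6) are shown so that the genes that moved in opposite directions can be read side by side. Capitals mark the stretch nearest to a direct repeat of AGGTCA with 1 base between the copies, the kind of element that nuclear receptors such as HNF4A bind, on either strand.
Apom: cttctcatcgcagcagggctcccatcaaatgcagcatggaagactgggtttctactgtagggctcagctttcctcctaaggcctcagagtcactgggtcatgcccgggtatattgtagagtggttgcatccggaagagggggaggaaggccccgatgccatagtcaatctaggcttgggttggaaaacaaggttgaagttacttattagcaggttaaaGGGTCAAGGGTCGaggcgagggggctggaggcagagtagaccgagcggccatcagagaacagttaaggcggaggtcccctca
Apoa1: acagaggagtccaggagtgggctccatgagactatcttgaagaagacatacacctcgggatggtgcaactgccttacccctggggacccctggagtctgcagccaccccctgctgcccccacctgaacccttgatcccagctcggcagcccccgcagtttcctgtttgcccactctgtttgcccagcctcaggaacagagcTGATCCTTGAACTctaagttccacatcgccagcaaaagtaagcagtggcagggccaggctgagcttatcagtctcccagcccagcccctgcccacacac
Apoa2: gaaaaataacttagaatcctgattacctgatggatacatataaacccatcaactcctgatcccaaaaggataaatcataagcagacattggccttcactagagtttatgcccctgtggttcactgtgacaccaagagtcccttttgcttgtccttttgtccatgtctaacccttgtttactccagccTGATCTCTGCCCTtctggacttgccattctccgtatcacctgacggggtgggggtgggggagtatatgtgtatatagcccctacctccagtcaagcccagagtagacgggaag
Apoa4: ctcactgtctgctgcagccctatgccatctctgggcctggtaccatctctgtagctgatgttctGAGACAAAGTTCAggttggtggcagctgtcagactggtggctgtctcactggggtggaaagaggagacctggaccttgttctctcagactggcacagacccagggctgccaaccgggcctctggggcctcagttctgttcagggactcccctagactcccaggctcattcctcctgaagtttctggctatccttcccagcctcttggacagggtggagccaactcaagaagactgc

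These windows were chr17:35131752-35132051 on the minus strand for Apom, chr9:46228380-46228679 on the plus strand for Apoa1, chr1:171224804-171225103 on the plus strand for Apoa2 and chr9:46240594-46240893 on the plus strand for Apoa4. The nearest stretch matched 10 of the 12 letters of the repeat in Apoa2, which 3.86% of the 32851 promoters in the RefSeq table equalled or bettered. It matched 9 letters in Apoa1 and in Apom, equalled or bettered by 24.6% of promoters, and 8 in Apoa4, equalled or bettered by 79.8%. It began 32 bases before the start site in Apom, 49 in Apoa1, 63 in Apoa2 and 186 in Apoa4. In Apoa4 it held the HNF4-type motif CAAAGTNCA, which was found on either strand in 1.41% of promoters and in none of the other 7 apolipoprotein promoters of the table. Promoters of 8 of the 10 genes were matched by symbol, and Apoc1 and Apoc3 had no entry. The RefSeq start sites used lay 0 bases from the GENCODE M21 gene start in Apoa2, 50 in Apoa1, 148 in Apoa4 and 249 in Apom. That of Apoh lay 51943 bases away. Positions before the start site depend on this choice, and the Apom window lay almost wholly within the GENCODE gene.

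Expression is given in TPM, transcripts scaled for gene length and to 1000000 per sample, so that levels of different genes can be set side by side. The 10 genes together took between 12.6% and 23.8% of all TPM in a sample, and 3 or 4 of them stood among the 10 highest genes of every sample. Ranked by mean TPM over the 18 samples, Apoa2 was number 1 of all genes (66317 TPM), Apoe number 3 (46391 TPM), Apoa1 number 4 (38416 TPM), Apoc1 number 7 (19127 TPM), Apoc3 number 15 (8968 TPM) and Apoh number 36 (3526 TPM). Apoa4, Apom, Apoa5 and Apob had means of 926, 669, 500.3 and 292 TPM. The lowest number of reads behind any of these values was 537, for Apom, with 11925055 to 20751348 reads on genes per sample, recovered as whole reads from the TPM values and gene lengths.

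The share of all TPM in the 10 genes was 16.0% ± 3.59 (SD, n = 3) for the tumours of WT mice and 17.8% ± 2.64 for those of GKO mice. Non-tumour tissue had 17.2% ± 4.47 with miR-181ab1 present and 19.8% (18.6% to 21.2%) without it, and untreated livers had 19.9% ± 2.89 and 20.4% ± 3.16, in the same order. Tumours and non-tumours overlapped in both genotypes (p = 0.7 in WT and p = 0.3 in GKO, two-sided exact permutation test, in which 3 against 3 cannot go below 0.1). Mitochondrially encoded genes took 2.32% to 5.88% of TPM in tumours, 4.52% to 21.4% in non-tumours and 8.80% to 17.5% in normal livers. The shares without these genes in the total are given in the last section, and the cause of any difference was not tested.

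The deletion could not be checked in these data. Mir181a-1 was listed at 0 in 17 of 18 libraries and at 1.4 TPM, a single read, in the library labelled GKO tumour 3, and Mir181b-1 was at 0 in all 18. Hepatocyte markers (10 genes, Alb among them) were present throughout, with summed TPM of 137633 to 192621 in tumours and 53691 to 84540 in the other livers. WT tumours 1 and 2 were more alike (Pearson's r = 0.980 across 13964 genes, which are not independent) than any other pair of tumours, for which r lay between 0.908 and 0.949, and each comparison that holds them was also run with both averaged as 1 sample.

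**Figure D1:**
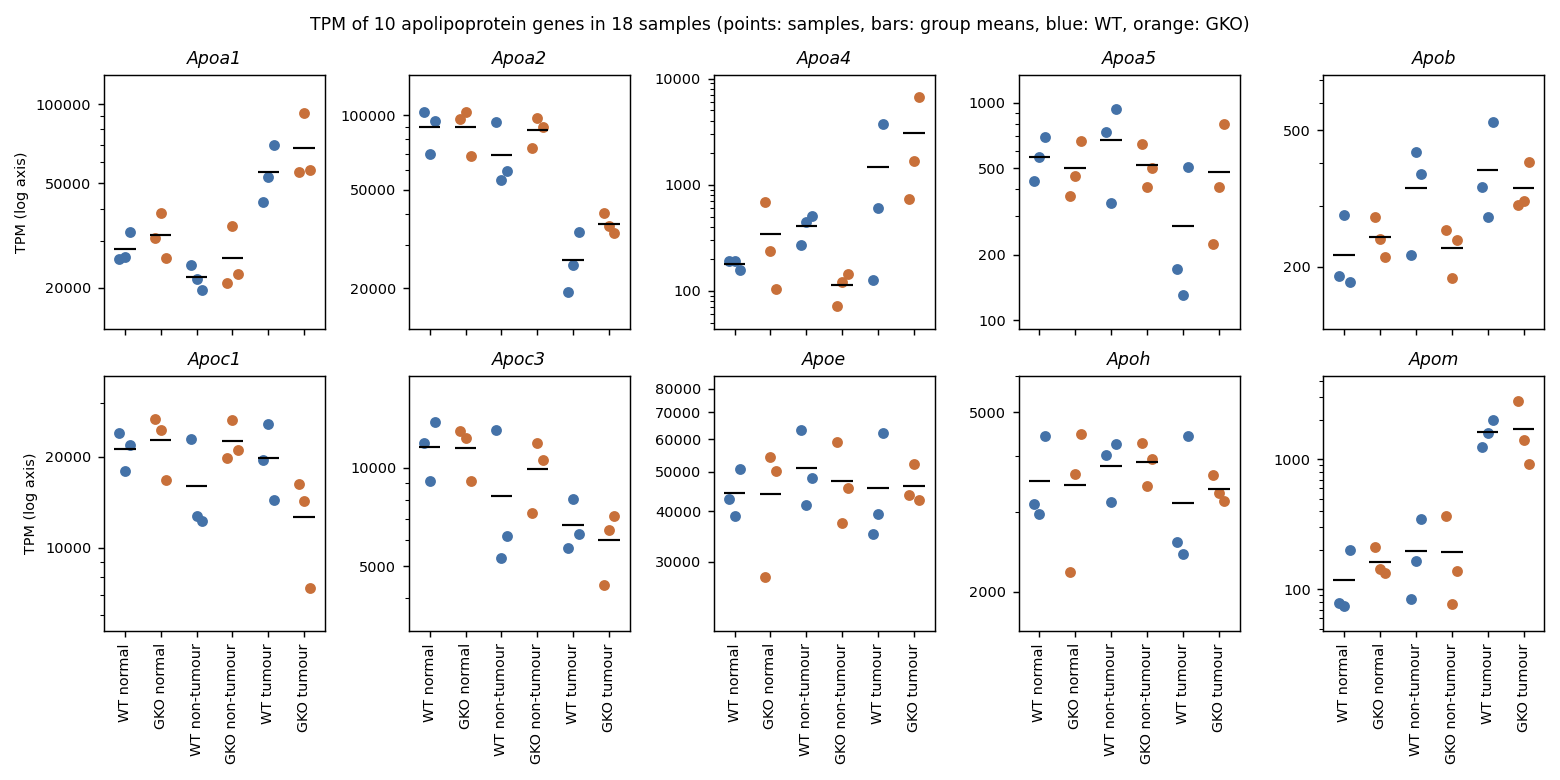
TPM on a log axis of the 10 apolipoprotein genes in each of the 18 samples, with 3 points per group and a bar at the group mean. Apom was between 928 and 2814 TPM in the 6 tumours and between 75.2 and 366 TPM in the 12 other livers, Apoa2 was lower in all 6 tumours than in the 12 other livers, and the Apoa4 points of the tumours were widely spread.

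Between tumours and non-tumour livers, 4 of the apolipoprotein genes passed the test in at least 1 genotype. Apom rose 9.34-fold in WT and 9.74-fold in GKO tumours, and in GKO tumours Apoa1 rose 2.60-fold, Apoa4 rose 18.7-fold and Apoa2 fell to 0.421 of its level. Apoa1, Apoa4 and Apoa2 did not pass in WT, where tumours held 2.47, 1.67 and 0.376 times the level of non-tumours. Differences were tested with limma on log2(TPM + 1), leaving out genes whose mean in the compared samples was under 0.5 TPM. A gene was called where its p, adjusted by the Benjamini-Hochberg method, was under 0.05. Log2 fold changes are on this log2(TPM + 1) scale.

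In WT, 1 of the 10 apolipoprotein genes was called, against 4.23% of the 14003 genes tested. It was higher in tumours, against 2.16% of all genes called higher, and no member was lower, against 2.07%. The values of the 2 groups did not overlap for 3 of the 10 genes, against 24.8% of all genes. In GKO, 4 of 10 were called, against 11.7% of 14092 genes. Of these, 3 were higher, against 7.75% of all genes, and 1 was lower, against 3.97%. The 2 groups did not overlap for 7 of the 10 genes, against 38.3%. The median log2 fold change of the 10 genes was -0.00 in WT and -0.11 in GKO, beside -0.02 and 0.20 over all genes tested. In GKO, genes called higher made up 66.1% of all calls with the deposited scaling, 44.0% after centring each sample on its median, 52.0% with quantile normalization, 53.6% with TPM rescaled without mitochondrial genes and 50.2% with voom on the recovered reads. Median centring moved the median of all genes from 0.20 to -0.04, and Apoa2, Apoa4 and Apom were called under each of these scalings. With no filter on low values the calls of all 4 genes in GKO, and that of Apom in WT, were lost.

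Apom, the HDL apolipoprotein that carries sphingosine-1-phosphate, stood at 1253, 1609 and 1999 TPM in WT tumours and at 85.1, 165 and 347 TPM in WT non-tumours. In GKO it stood at 2814, 1420 and 928 TPM in tumours and at 366, 77.6 and 138 TPM in non-tumours. Every tumour lay above every non-tumour liver in both genotypes, and the normal livers, at 75.2 to 214 TPM, lay with the non-tumours. The log2 fold change was 3.22 (SE 0.51, limma adjusted p = 0.0206) in WT, a 9.34-fold rise, and 3.28 (SE 0.62, adjusted p = 0.0201) in GKO, a 9.74-fold rise. In WT the adjusted p was 0.0710 when tumour 1 was left out, 0.0931 for tumour 2, 0.0512 for non-tumour 1 and 0.0789 with WT tumours 1 and 2 averaged. In GKO it was 0.0543 without non-tumour 2 and 0.0838 without non-tumour 3, with log2 fold changes of 2.78 and 3.19.

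Apoa1, the main structural protein of HDL and the activator of the cholesterol-esterifying enzyme LCAT, stood at 42343, 52848 and 69893 TPM in WT tumours and at 24479, 21582 and 19543 TPM in WT non-tumours. In GKO it stood at 55042, 92169 and 55963 TPM in tumours and at 20780, 34321 and 22582 TPM in non-tumours. All 6 tumours were above all 12 livers without tumour, of which the highest, a GKO normal liver, held 38621 TPM. The log2 fold change was 1.31 (SE 0.28) in WT, which was not called (limma adjusted p = 0.0555), and 1.38 (SE 0.32, adjusted p = 0.0362), a 2.60-fold rise, in GKO. The call in GKO was lost when any 1 of the 6 samples was left out, with adjusted p between 0.0529 and 0.137, and after median centring (log2 fold change 1.14, adjusted p = 0.102).

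Apoa2, another major protein of HDL, moved the other way. It stood at 19323, 24880 and 33636 TPM in WT tumours and at 93814, 54647 and 59569 TPM in WT non-tumours. In GKO it stood at 40367, 35740 and 33418 TPM in tumours and at 73580, 97398 and 90198 TPM in non-tumours. No tumour reached the lowest liver without tumour, and the normal livers lay between 68418 and 103568 TPM. The log2 fold change was -1.41 (SE 0.34, limma adjusted p = 0.0744) in WT, short of a call, and -1.25 (SE 0.23, adjusted p = 0.0196) in GKO, where the call was lost without GKO non-tumour 2 (adjusted p = 0.0692) or 3 (adjusted p = 0.0917).

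Since Apoa1 and Apoa2 changed in opposite directions, their ratio within a sample, which a factor applied to a whole sample does not alter, lay apart in tumours and other livers. Apoa1 was 2.19, 2.12 and 2.08 times as high as Apoa2 in WT tumours and 1.36, 2.58 and 1.67 times in GKO tumours. In the 12 livers without tumour the ratio lay between 0.248 and 0.395. The mean was 2.13 ± 0.057 (SD, n = 3) in WT tumours and 0.328 ± 0.067 in WT non-tumours, and 1.87 ± 0.631 in GKO tumours and 0.295 ± 0.052 in GKO non-tumours. Since the values of each gene had already been seen to lie apart, in opposite directions, the ratios could not overlap, and they are given as a description with no test.

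**Figure D2:**
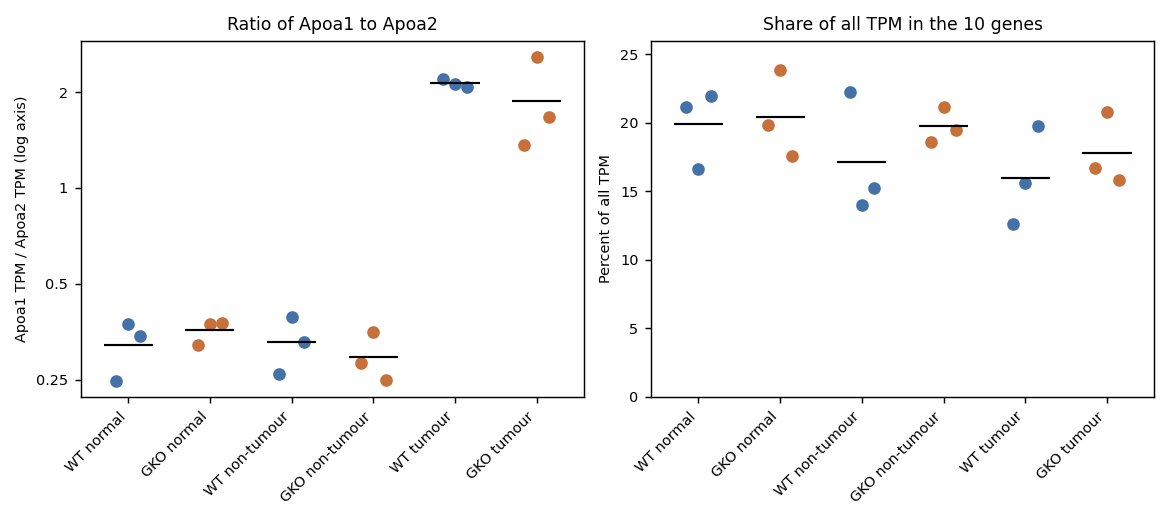
Left, the ratio of Apoa1 TPM to Apoa2 TPM in each sample on a log axis, and right, the percent of all TPM in the 10 apolipoprotein genes, with group means as bars. The ratio was at least 1.36 in the 6 tumours and at most 0.395 in the 12 other livers, while the shares of the groups overlapped.

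Apoa4, a lipid-binding protein of chylomicrons and HDL that intestine and mouse liver make, varied more than any other of the 10 genes, with a group mean 27.0-fold higher in GKO tumours than in GKO non-tumours. It stood at 739, 1686 and 6685 TPM in GKO tumours and at 71.3, 122 and 143 TPM in GKO non-tumours, with no overlap. The log2 fold change was 4.22 (SE 0.74, limma adjusted p = 0.0166), and the call was lost without GKO non-tumour 2 (adjusted p = 0.0501) or 3 (adjusted p = 0.0575). In WT it stood at 126, 598 and 3708 TPM in tumours and at 272, 442 and 502 TPM in non-tumours, which overlapped, and the log2 fold change of 0.74 (SE 1.11, adjusted p = 0.768) became -0.51 without WT tumour 3. Of 5 intestinal markers, Alpi, Lct and Sis were below 0.1 TPM and Vil1 at most 0.853 TPM in all 18 samples, and Fabp2, which liver also held, was at 143 to 574 TPM.

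Apoa5, which promotes the hydrolysis of triglyceride by lipoprotein lipase, stood at 172, 130.5 and 508 TPM in WT tumours and at 730.4, 346 and 939 TPM in WT non-tumours. WT tumours 1 and 2 held less than any WT non-tumour and WT tumour 3 did not, and the log2 fold change of -1.46 (SE 0.60) was not called (limma adjusted p = 0.24), though it was called without WT tumour 3 (log2 fold change -2.04, adjusted p = 0.0491). In GKO the 2 groups overlapped, at 224 to 801 TPM in tumours and 409 to 642 TPM in non-tumours (log2 fold change -0.28, SE 0.46).

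Apoc1, which hinders the receptor uptake of lipoproteins, stood at 16205, 14300 and 7382 TPM in GKO tumours and at 19823, 26516 and 21020 TPM in GKO non-tumours. The groups did not overlap, and the log2 fold change of -0.90 (SE 0.34) was not called (limma adjusted p = 0.125). In WT the tumours, at 14427 to 25724 TPM, overlapped with the non-tumours, at 12272 to 22865 TPM (log2 fold change 0.34, SE 0.36). Apoc3, an inhibitor of lipoprotein lipase and of remnant removal, stood at 4390, 6476 and 7148 TPM in GKO tumours and at 7276, 11857 and 10540.1 TPM in GKO non-tumours, again without overlap and not called (log2 fold change -0.72, SE 0.30, adjusted p = 0.152). In WT, Apoc3 had a log2 fold change of -0.19 (SE 0.39).

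Apoe, the ligand through which receptors of the LDL receptor family take up remnants, had group means from 44030.3 to 50976 TPM, the narrowest span of the 10 genes at 1.16-fold. The log2 fold change between tumours and non-tumours was -0.18 (SE 0.33, limma adjusted p = 0.812) in WT and -0.02 (SE 0.26, adjusted p = 0.971) in GKO. Macrophages also make Apoe, and the 12 macrophage markers summed to 215 to 608 TPM in tumours, 289.9 to 1433 TPM in non-tumours and 165 to 479 TPM in normal livers.

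Apob stood at 342, 279.8 and 529 TPM in WT tumours and at 216, 432 and 371 TPM in WT non-tumours, and at 302, 311 and 402 TPM in GKO tumours and 256, 185 and 239 TPM in GKO non-tumours. Only the GKO groups did not overlap, and neither log2 fold change was called (0.18, SE 0.37, in WT and 0.58, SE 0.25, limma adjusted p = 0.157, in GKO). Apoh, a plasma protein that binds anionic phospholipids and the 1 gene of the 10 with a miR-181 seed match, had group means from 3145 to 3879 TPM. The log2 fold change of Apoh between tumours and non-tumours was -0.32 (SE 0.32) in WT and -0.20 (SE 0.22) in GKO. Between GKO and WT it was 0.15 (SE 0.30) in tumours, 0.03 (SE 0.22) in non-tumours and -0.06 (SE 0.30) in normal livers, none of them called.

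**Figure D3:**
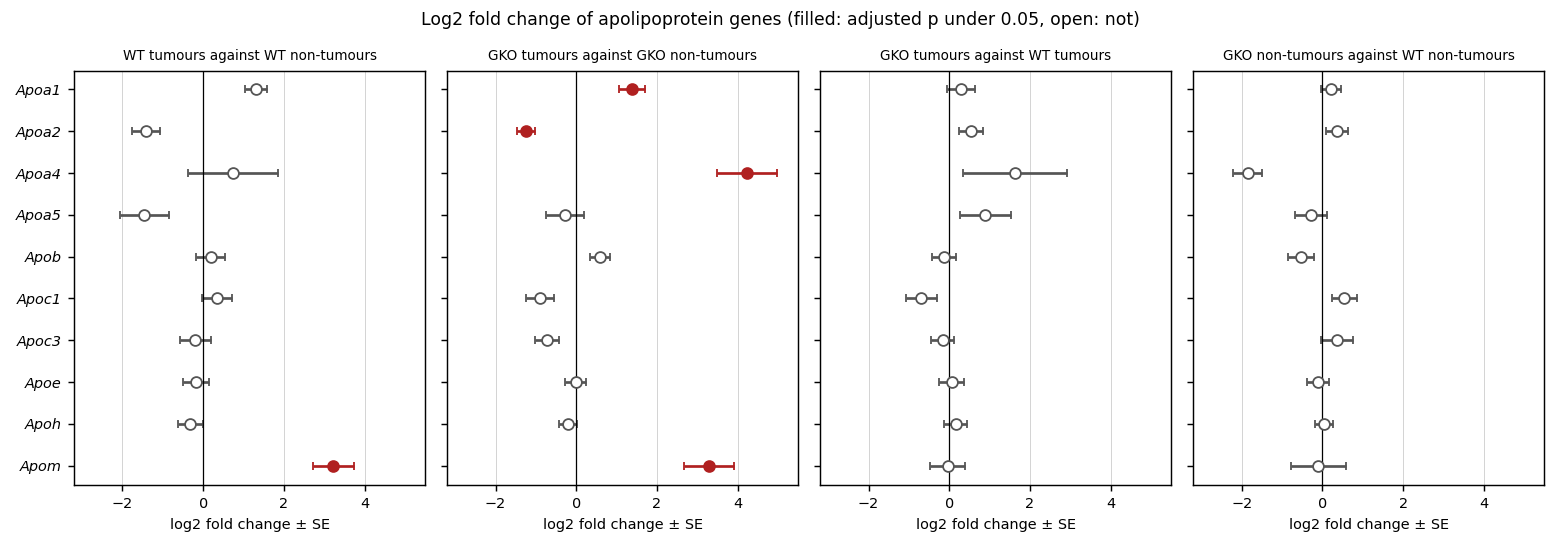
Log2 fold change with its standard error for the 10 genes in 4 comparisons of 3 against 3 samples, filled where the limma adjusted p was under 0.05. Apom was filled in both comparisons of tumours with non-tumours, Apoa1, Apoa2 and Apoa4 in GKO only, and no gene was filled in the comparisons of GKO with WT. A filled point in 1 genotype and an open point in the other is no test of their difference.

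Apoa1, Apoc3, Apoa4 and Apoa5 lie side by side within 43.34 kb of chromosome 9 (mm10, 46228580 to 46271919). In GKO tumours the log2 fold changes against non-tumours were 1.38 for Apoa1, -0.72 for Apoc3, 4.22 for Apoa4 and -0.28 for Apoa5. Those of Apoa1 and Apoa4, both positive, were called, and the negative values of Apoc3 and Apoa5 were not. Opposite changes of neighbours were therefore not shown. Apoc1 and Apoe lie within 9.71 kb of chromosome 7 (19689481 to 19699188), Apoa2 on chromosome 1 (171225054 to 171226379), Apom on chromosome 17 (35128997 to 35132050), Apob on chromosome 12 (7977648 to 8016835) and Apoh on chromosome 11 (108343354 to 108414396). Apoa4, Apoa5 and Apoh overlap genes annotated on the opposite strand, and the strand setting of the counting was not given in the sources used here.

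GKO was set against WT to ask whether loss of miR-181ab1 went with another level of these genes. With 3 samples per group, a gene that was not called is not shown to be unchanged. None of the 10 was called in tumours, against 0.0215% of the 13964 genes tested. At an unadjusted p under 0.05 there were again 0 of 10, against 8.87% of all genes, voom on the recovered reads also called 0, and the groups overlapped for all 10, against 14.7% of genes without overlap. The largest value was that of Apoa4, with the levels given above (log2 fold change 1.63, SE 1.29, limma adjusted p = 0.731). Apoa5 followed with 0.89 (SE 0.63), then Apoc1 with -0.69 (SE 0.39), Apoa2 with 0.53 (SE 0.30) and Apoa1 with 0.29 (SE 0.34). Apom had -0.04 (SE 0.43). Between samples with the same replicate number, which are not shown to be pairs, Apoa4 and Apoa5 were higher in GKO in 3 of 3. Apoc1 was lower in 3 of 3. With the number as a block the limma adjusted p was 0.327 for Apoa4 and 0.439 for Apoa5, and none of the 10 was called.

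In non-tumour livers no gene of the whole table was called between GKO and WT (0% of 13768). Apoa4 alone of the 10 had an unadjusted p under 0.05, against 5.80% of all genes, and it alone had groups that did not overlap, against 13.2%. With 71.3, 122 and 143 TPM in GKO against 272, 442 and 502 TPM in WT it was lower in all 3 GKO livers (log2 fold change -1.85, SE 0.36, unadjusted p = 0.00133, limma adjusted p = 0.643). Apoc1 had a log2 fold change of 0.54 (SE 0.30) and voom called 0 members.

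In normal livers none of the 10 genes was called between GKO and WT, by limma or by voom, against 0% of all 13099 genes. None had an unadjusted p under 0.05, against 3.96%, and none had groups that did not overlap, against 7.95%. Apoa4 stood at 682, 239.6 and 104 TPM in GKO and at 193, 189 and 158 TPM in WT, with GKO values on both sides of the WT values (log2 fold change 0.52, SE 0.59). Apom had a log2 fold change of 0.60 (SE 0.39, limma adjusted p = 0.999).

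DEN-treated non-tumour livers were also set against untreated normal livers. In WT no member was called by limma or voom, against 0.00744% of 13440 genes, and 1 had an unadjusted p under 0.05, against 24.4%. That was Apoa4, higher in all 3 non-tumours (log2 fold change 1.12, SE 0.27, limma adjusted p = 0.122), and Apoa4 and Apoa1 were the 2 genes whose groups did not overlap, against 33.9%, with Apoa1 lower (log2 fold change -0.36, and 0.12 with quantile normalization). Median centring moved the median of all genes in this comparison from 0.32 to -0.05. Apob had a log2 fold change of 0.62 (SE 0.32). In GKO no member was called by limma or voom, against 0% of 13530 genes, none had an unadjusted p under 0.05, against 5.20%, and all groups overlapped, against 8.73% without overlap. Apoa4 there had a log2 fold change of -1.25 (SE 0.62). These comparisons share non-tumour samples with those above.

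Whether the genotype effect itself differed between tissues was tested as an interaction over 12 samples. Between tumours and non-tumours 0 of 10 genes was called by limma or voom, against 0.0142% of 14106 genes, and 2 had an unadjusted p under 0.05, against 10.5%. These were Apoa4, with a difference of 3.48 on the log2 scale (SE 1.48, limma adjusted p = 0.475), and Apoc1, with -1.24 (SE 0.51, adjusted p = 0.473). Between non-tumours and normal livers 0 of 10 was called by either, against 0% of 13488 genes, and 1 had an unadjusted p under 0.05, against 6.15%, again Apoa4 with -2.37 (SE 0.76, adjusted p = 0.724).

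Of 60 other genes of lipoprotein metabolism 56 were tested between tumours and non-tumours. Genes of the lists are named below only in the genotype where they were called, which is no test of a difference between genotypes. In WT none was higher and 3 were lower, with a median log2 fold change of -0.35 beside -0.02 over all genes, where 2.16% of all genes tested were called higher and 2.07% lower. In GKO 5 were higher and 4 lower, with a median of 0.19 beside 0.20 over all genes, where 7.75% of all genes were called higher and 3.97% lower. By role, the calls in GKO were 0 higher and 2 lower of 14 other apolipoproteins, 1 and 0 of 14 genes of assembly and secretion, 1 and 1 of 8 lipases and their regulators, 2 and 1 of 9 genes of HDL formation, and 1 and 0 of 11 receptors and clearance genes.

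Among receptors and clearance, Lsr, the lipolysis-stimulated lipoprotein receptor, rose from 20.6, 10.99 and 10.3 TPM to 129, 51.7 and 110.3 TPM in GKO (log2 fold change 2.68, SE 0.41). The GKO groups did not overlap for Lsr. In WT, Pcsk6, a proprotein convertase, fell from 29.97, 44.4 and 38.2 TPM to 9.02, 9.43 and 19.0 TPM (log2 fold change -1.57, SE 0.33, limma adjusted p = 0.0492).

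Lipases moved in both directions. At an unadjusted limma p under 0.05, 3 of the 8 lipases and regulators were higher and 4 lower in WT, and 2 higher and 2 lower in GKO. Over all genes, 2791 of 14003 in WT and 4468 of 14092 in GKO were under this p. Lpl, lipoprotein lipase, rose from 19.8, 9.24 and 5.58 TPM in GKO non-tumours to 77.5, 46.5 and 41.3 TPM in GKO tumours (log2 fold change 2.27, SE 0.45), whereas Lipc, hepatic lipase, fell from 153, 121 and 136 TPM to 36.6, 36.7 and 35.1 TPM (log2 fold change -1.88, SE 0.21, limma adjusted p = 0.00506). These opposite changes were both seen in every GKO tumour. In WT, Lipg, endothelial lipase, fell from a mean of 3.86 TPM to 0.185 TPM, and Ces1d, a carboxylesterase that mobilises triglyceride for secretion, fell from 316, 282 and 501 TPM to 17.1, 16.9 and 5.64 TPM (log2 fold change -4.79, SE 0.45, limma adjusted p = 0.00313). Pon1, the HDL-bound paraoxonase, fell from 504, 340.2 and 484 TPM to 45.5, 111 and 46.1 TPM in GKO (log2 fold change -2.81, SE 0.39). Scarb1, the HDL receptor, rose from 33.7, 17.2 and 29.0 TPM to 62.7, 74.2 and 79.9 TPM in GKO (log2 fold change 1.45, SE 0.29). Of the other apolipoprotein-named genes, Apol9b was among the 6 with the largest change in GKO (log2 fold change -1.71, SE 0.40).

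**Figure D4:**
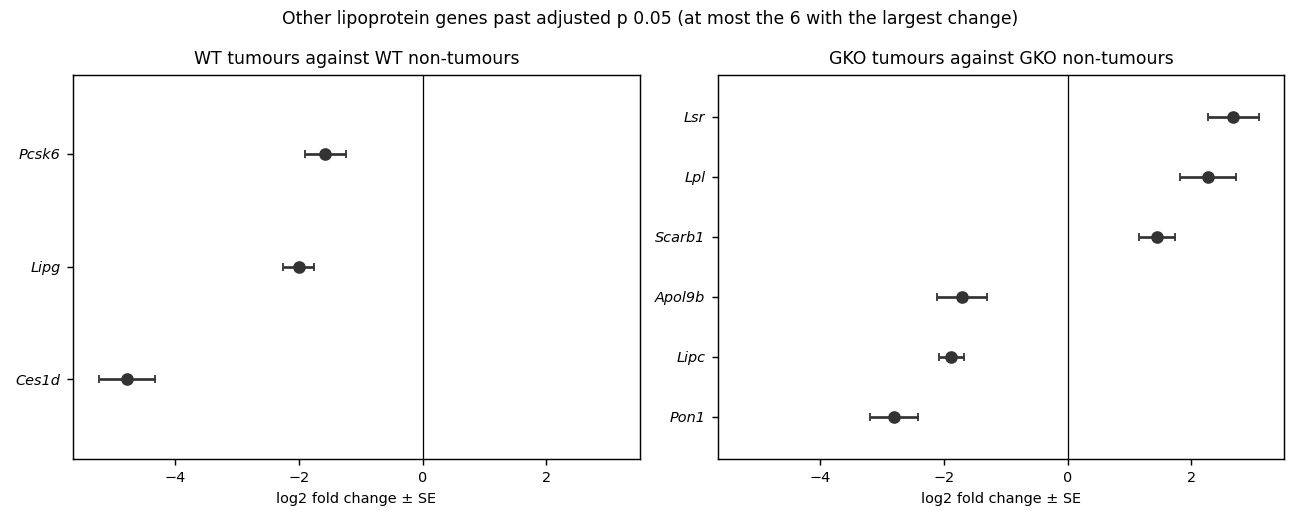
Log2 fold change with its standard error of the other lipoprotein genes past an adjusted p of 0.05 in tumours against non-tumours, at most the 6 with the largest change per genotype. The 3 genes in WT were lower in tumours, and in GKO Lsr, Lpl and Scarb1 were higher while Pon1, Lipc and Apol9b were lower.

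Of 37 transcription factors and nuclear receptors known to act on apolipoprotein genes, 36 were tested. In WT 1 was called, beside 4.23% of all genes tested. It was Rora, a nuclear receptor, which rose from 9.44, 10.4 and 8.81 TPM to 23.6, 21.8 and 23.7 TPM (log2 fold change 1.19, SE 0.19, limma adjusted p = 0.0196). In GKO 5 were higher and 1 lower, beside 7.75% and 3.97% of all genes. The genes higher were Fos (2.05, SE 0.49), the sterol regulator Srebf1 (1.79, SE 0.42), the hepatocyte factor Foxa3 (1.52, SE 0.36), Creb3l2 (1.43, SE 0.24) and Srebf2 (1.28, SE 0.21), all as log2 fold changes, and the gene lower was Mlxipl, the carbohydrate-response factor (-1.52, SE 0.33). Neither list held a called gene in any comparison of GKO with WT or of non-tumours with normal livers.

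Other markers also moved between tumours and non-tumours. Of 8 pericentral hepatocyte markers, which Wnt signalling maintains around the central vein, 5 were called lower in WT and 4 in GKO, with summed TPM of 35.9 to 1991 in tumours and 5166 to 12234 in non-tumours. Of 8 periportal markers 0 were called in WT, and 2 were higher and 1 lower in GKO. Of 10 hepatocyte markers 2 were higher and 1 lower in WT, and 3 were higher in GKO. Cholangiocyte markers summed to 965 and 549.9 TPM in GKO tumours 2 and 3, and to at most 94.2 TPM in the other 16 samples. Apoa4 was highest in GKO tumour 3 (6685 TPM), while GKO tumour 2, with the larger marker sum, held 1686 TPM. WT tumour 3 held 3708 TPM of Apoa4 with a cholangiocyte sum of 22.7 TPM. The part of any of these markers in the apolipoprotein levels was not tested. In bulk tissue fewer cells of a type and less RNA per cell cannot be told apart. In GKO the stellate and fibroblast markers had 5 of 10 higher and 1 lower, and the endothelial markers 2 of 10 higher. The macrophage markers had 2 of 12 lower and the B cell markers 2 of 6 lower, also in GKO. None of these was called in WT, which is no test of a difference between genotypes. Median log2 fold changes in WT and GKO were 0.27 and 0.57 for stellate and fibroblast and 0.42 and 0.14 for endothelial markers. They were -0.99 and -0.73 for macrophage and 0.03 and -1.01 for B cell markers. T cell and cholangiocyte markers had no call in either genotype. Beside these counts, 7.75% of all genes tested were called higher and 3.97% lower in GKO, and 2.16% higher and 2.07% lower in WT.

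The genes whose levels followed an apolipoprotein most closely over the 18 samples, by Pearson's r of log2(TPM + 1) among genes averaging 5 TPM or more, were named for the 5 members with a 2-fold range of group means. All samples share the libraries and the difference between tumours and livers, so that r describes these samples only. Apom was followed by Serpinf2 (r = 0.962), Coq8b (0.958) and Ahsg (0.956), of which Serpinf2 and Ahsg encode plasma proteins made by hepatocytes. Apoa2 was followed by Klkb1 (0.962), Csad (0.941) and Polr2i (0.937), and Apoa1 by 2310034O05Rik (0.913), Aebp1 (0.906) and Bex2 (0.876). Apoa4 was followed by Pak2 (0.908), Atp9a (0.897) and Dapk2 (0.872), and Apoa5 by the nuclear receptor gene Nr2f2 (0.913), Gm4952 (0.890) and Cyp4a32 (0.884).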

How the data were processed

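The authors mapped reads to mm10 with STAR version 2.7.3a, counted them per gene with featureCounts version 2.0.0 and deposited TPM, 1 column per sample. The gene annotation and the way TPM was computed were not given in the sources used here. Each column summed to 1000000. From the deposited TPM and GENCODE M21 exonic lengths (54809 of 54838 genes), reads were recovered, which came out whole within 0.02 for 97.96% to 98.67% of values up to 30 reads, and used only for depth and for voom.

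Comparisons of 3 against 3 samples, and the interactions over 12, were fitted with limma 3.58.1 (R 4.3.3) with a trended prior on log2(TPM + 1), leaving out genes that averaged under 0.5 TPM over the samples fitted, and p-values were Benjamini-Hochberg adjusted over all genes tested. The fit was tested on simulated data. Tables and figures were made with Python 3.11.15 and pandas 2.3.3. The members and gene lists were chosen with earlier results of these data known. All 10 members were tested in every comparison. All were named for tumours against non-tumours, and only some of them in the other comparisons. List genes were named where called (at most the 6 with the largest change per list and comparison), and marker lists were given by counts and summed TPM. A gene of the lipoprotein list is not reported here and was left out of its counts.

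Samples with the same replicate number correlated in their deviations from the group means with r of 0.101 to 0.197 in GKO and WT tumours. In every other comparison at least 1 pair was at 0.1 or less. The same r was not computed for samples with different numbers, so that these values cannot show a pairing. The numbers were looked at as a possible pairing in GKO and WT tumours only as a description. The numbers come from the labels, which do not say what they mark. The alternatives concerned the pseudocount, filter, scaling, fit, replicate block and single samples.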

Additional observations from a re-analysis of the deposited data

How the results depend on the processing

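The number of apolipoprotein genes called between tumours and non-tumours depended on the processing. In WT, where 1 was called, it was 0 with no filter on low values or with WT tumours 1 and 2 averaged, 2 with quantile normalization or a prior without trend, and 3 with a mean of at least 5 TPM or with all 18 samples in one fit. Leaving out each sample gave 0 to 4 (0 without WT tumour 1, WT tumour 2 or WT non-tumour 1, and 4 without WT tumour 3). In GKO, where 4 were called, it was 0 with no filter, and leaving out each sample gave 0 to 3, with 0 without GKO non-tumour 2 or 3. The cause was not tested. Apoa1 alone lost its GKO call with median centring, with TPM rescaled without the 10 genes (adjusted p = 0.0505) and, in both alternatives chosen after seeing the data, voom (0.0819) and TPM rescaled without mitochondrial genes (0.0690). Other comparisons called 0 of the 10 genes in every setting. For the 36 gene differences recomputed one by one, 602 of 648 alternative values kept direction and side of the threshold, 25 lost a call, 9 gained one and 12 reversed. These 12 came from leaving out 1 sample. By that, the log2 fold changes ran from -0.47 to 0.33 for Apom in GKO against WT tumours, from -0.51 to 1.92 for Apoa4, -0.11 to 0.38 for Apob and -0.45 to 0.20 for Apoc3 in WT tumours against non-tumours, from -0.75 to 0.17 for Apoa5 and -0.18 to 0.15 for Apoe in GKO tumours against non-tumours, and from -0.19 to 1.17 for Apoa4 in GKO against WT normal livers. Over all 90 differences of the 10 genes, 43 changed sign in some alternative and 23 did so in one other than leaving out 1 sample, none of them called. With a replicate block, 1 of the 10 genes was called in WT and 4 in GKO between tumours and non-tumours. None of the 10 was called between GKO and WT tumours or in the other comparisons, so that the block changed no count of the 10. Over all genes it took the calls from 592 to 361 in WT and 1652 to 1436 in GKO tumours against non-tumours. Between GKO and WT tumours they went from 3 to 0. Without mitochondrial genes in the total, the share of TPM in the 10 genes became 16.8% for WT and 18.3% for GKO tumours, 18.5% for WT and 23.1% for GKO non-tumours, and 23.4% and 23.7% for their normal livers, so that GKO tumours minus non-tumours went from -1.96 to -4.80 percentage points (exact permutation p from 0.3 to 0.2). Over all genes, the calls ran from 163 to 1533 around 592 in WT tumours against non-tumours, 229 to 2627 around 1652 in GKO, 0 to 147 around 3 in GKO against WT tumours, 0 to 91 around 2 for the interaction with tumours, and 0 to 4 in the other comparisons. At least 537 reads lay behind every apolipoprotein value, and the precision was that of 3 samples per group.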
